A study of Mus musculus with 9 samples.

Results

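The genes described here are 10 genes of smooth muscle actin and the contractile apparatus: the 4 muscle actins Acta1, Acta2, Actc1 and Actg2, the tropomyosins Tpm1 and Tpm2, the myosin light chain Myl9, the actin-binding proteins Cnn1 and Tagln, and the transcription factor Srf. They were picked by gene symbol from a table of 31167 genes, because Acta1 and Acta2 stood much lower in cells overexpressing Egr1. That contrast was part of the choice, so its values for the 10 genes are given as a description without a test, and only the comparison of H/R with Sham was tested for them.

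Gene expression was measured by RNA sequencing in primary renal tubular epithelial cells of C57BL/6 mice, in 3 groups of 3 libraries. The Sham group was untreated. The H/R group, a culture model of ischemia and reperfusion, spent 6 h without glucose at 1.0% oxygen and was then returned to complete medium for 18 h. The EGR1OV group was transfected, by the reagent EndoFectin Max, with a plasmid that expresses Egr1 from a CMV promoter, and no group given empty plasmid was among the samples compared, so effects of Egr1 and of transfection itself cannot be told apart. Age and time from transfection to harvest are not given for this group. Egr1 is an immediate-early zinc finger transcription factor. The sources used here do not say whether the 3 libraries of a group came from separate animals or cultures, so the p-values measure only the spread between these samples. Values are FPKM, fragments per length of exon relative to library depth, which correct for gene length and allow levels of different genes to be compared.

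Contractile force is made when myosin pulls on filaments of actin, along which tropomyosin lies. Smooth muscle cells, pericytes and myofibroblasts hold much smooth muscle actin, and in the kidney its appearance is widely used as a sign of myofibroblast formation and fibrosis. Srf, serum response factor, binds a short DNA element named the CArG box in front of many actin and contractile genes, and works with partner proteins such as myocardin and the myocardin-related factors.

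The 4 muscle actins and the 2 cytoplasmic actins Actb and Actg1 are close copies, so their sequences are set side by side first. Their coding starts (mouse, GENCODE M21, coding strand) are shown with bases that differ from Acta2 in capitals. The 60 bases shown begin at coding base 7 in Acta1, Acta2 and Actc1, at base 4 in Actg2 and at base 1 in Actb and Actg1.
Acta2: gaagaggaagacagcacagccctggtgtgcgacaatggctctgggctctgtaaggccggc
Acta1: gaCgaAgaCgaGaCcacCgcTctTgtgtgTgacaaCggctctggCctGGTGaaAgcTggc
Actc1: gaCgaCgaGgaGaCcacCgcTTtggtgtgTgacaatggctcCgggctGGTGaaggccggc
Actg2: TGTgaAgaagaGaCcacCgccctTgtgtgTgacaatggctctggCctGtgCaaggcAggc
Actb: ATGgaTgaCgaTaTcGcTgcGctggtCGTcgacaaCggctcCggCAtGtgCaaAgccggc
Actg1: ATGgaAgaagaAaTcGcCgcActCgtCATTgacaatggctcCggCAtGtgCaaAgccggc

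In this stretch Acta1 differed from Acta2 at 17 bases, Actc1 at 14, Actg2 at 13, and Actb and Actg1 at 20 each. Over 1128 aligned coding bases Acta1 and Acta2 were 85.4% identical, and the pairs of actins ranged from 81.6% to 88.7%. Windows of 50 bases identical to another actin transcript made up 2.0% of Acta1, 0.352% of Acta2 and none of Actc1 or Actg2. At 100 bases no actin transcript shared a window with another. The read length is not given in the sources used here.

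The CArG box was searched for in the promoters of RefSeq (GRCm38.p6), which run from 250 bases before to 50 bases after a gene start. Only the exact letters CCWWWWWWGG, with W for A or T, counted as a box. Of the 10 genes, 8 had a promoter entry, and Tagln and Actg2 had none. The box was present in 4 of the 8, namely Acta1, Actc1, Myl9 and Srf, and in 1.63% of all 32851 promoters. The parts of these promoters that hold it are shown 5′ to 3′ on the strand of the gene, with each box in capitals, and Actg1 is added as a cytoplasmic actin with a box.
Acta1, chr8:123894814-123894873, minus strand: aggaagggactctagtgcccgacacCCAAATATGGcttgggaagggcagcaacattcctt
Actc1, chr2:114052888-114052947, minus strand: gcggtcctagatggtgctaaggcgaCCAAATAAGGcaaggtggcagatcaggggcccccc
Myl9, chr2:156775278-156775337, plus strand: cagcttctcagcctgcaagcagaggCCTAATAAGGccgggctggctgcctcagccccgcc
Srf, chr17:46556190-46556269, minus strand: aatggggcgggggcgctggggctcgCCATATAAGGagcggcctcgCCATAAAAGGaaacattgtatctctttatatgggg
Actg1, chr11:120348551-120348610, minus strand: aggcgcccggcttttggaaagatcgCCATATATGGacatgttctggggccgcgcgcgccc

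Srf itself held 2 boxes, and Acta2, Cnn1, Tpm1 and Tpm2 had no exact match in the window. Boxes with other letters were not searched for, so these genes may hold some. The Egr letters GCGGGGGCG or GCGTGGGCG, on either strand, were found in 1 of the 8 promoters, that of Srf, and in 3.47% of all promoters. The promoter of Actg1, which is not among the 8, held them as well. These matches describe the letters of the window only.

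Egr1, the gene carried by the plasmid, followed the labels. It had 6.20, 6.91 and 6.09 FPKM in Sham, 8.57, 7.59 and 7.48 in H/R, and 45.7, 42.2 and 40.1 in EGR1OV. All 3 EGR1OV libraries were above the other 6, with a mean 6.66 times that of Sham (log2 difference 2.56, limma, Benjamini-Hochberg adjusted p = 2.19e-09). H/R also lay above Sham (0.26, adjusted p = 0.0348). The table does not separate reads of the plasmid from those of the cell's own gene. Depth recovered from the FPKM steps was 16183614 to 18384019 reads per library. The epithelial markers Krt8, Krt18, Cdh1, Epcam, Pax8 and Pax2 were detected in every library, as were the proximal tubule genes Lrp2 and Aqp1 at low levels (3.60 and 1.3 FPKM in Sham). The segment markers Slc34a1, Slc12a1 and Umod were at or near 0, with Umod listed at 0 throughout.

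Acta2, smooth muscle alpha actin, was among the most abundant transcripts of these epithelial cultures. It lies on chr19:34241090-34255336, minus strand (ENSMUSG00000035783; positions as in the deposited table, equal to GRCm38 for 94.6% of its genes). It was at 2986, 2873 and 2980 FPKM in Sham, at 2810, 2805 and 2612 in H/R and at 1101, 1117 and 1175 in EGR1OV. The 3 EGR1OV libraries stood far below the other 6, and the H/R libraries lay just under the Sham libraries without overlap. Ranked by FPKM, Acta2 was gene 3 in every Sham library, 4 or 5 in H/R and 9 or 10 in EGR1OV. The EGR1OV mean of 1131 ± 38.9 (SD, n = 3) was 38.4% of the Sham mean of 2947 ± 63.7, a log2 difference of −1.38 on the log2(FPKM + 1) scale. Quantile normalization brought this difference to −0.93. H/R differed from Sham by −0.10, which was not called (limma, Benjamini-Hochberg adjusted p = 0.113).

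Acta1, skeletal muscle alpha actin (chr8:123891769-123894751, minus strand, ENSMUSG00000031972), had the largest log2 difference in EGR1OV of the 9 genes above the expression filter. Its FPKM were 121, 119 and 127 in Sham, 98.4, 102 and 91.0 in H/R, and 17.6, 18.4 and 19.5 in EGR1OV. The 3 groups were separate from each other, in the order Sham, H/R, EGR1OV. The EGR1OV mean was 15.2% of Sham, a log2 difference of −2.66 from Sham and of −2.33 from H/R, and between 450 and 505 reads per library lay behind the EGR1OV values. Its rank by FPKM was 297 to 313 in Sham and 2810 to 3133 in EGR1OV.

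Acta1 also fell in H/R, to 0.795 times the Sham level. The log2 difference was −0.33 (limma, Benjamini-Hochberg adjusted p = 0.00473), and over 19 alternative settings it ran from −0.36 to −0.28 with adjusted p from 3.05e-06 to 0.0221. The exact two-sided permutation p for this gene was 0.1, the smallest that 3 against 3 allows. Calls required both an adjusted p below 0.05 and a fold of at least 1.2 for H/R, or 1.3 for EGR1OV. Acta1 was the single called gene of the 9 that were tested. Over all 13985 genes tested 4.25% were called in H/R, 2.65% lower and 1.60% higher.

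Actg2, the gamma actin of visceral smooth muscle (chr6:83512905-83536265, minus strand), was also lowest in EGR1OV, at a far lower level than Acta2. It was at 24.7, 27.6 and 25.3 FPKM in Sham, at 23.5, 25.2 and 21.7 in H/R and at 7.04, 7.19 and 6.30 in EGR1OV. The Sham and H/R values overlapped and the EGR1OV values lay apart, at 26.5% of Sham. The log2 differences were −1.78 from Sham and −1.64 from H/R, while H/R and Sham differed by −0.14 (limma, Benjamini-Hochberg adjusted p = 0.209).

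Actc1, cardiac alpha actin (chr2:114047282-114053548, minus strand), was hardly detected. Its FPKM were 0.15, 0.106 and 0.112 in Sham, 0.153, 0.0336 and 0.105 in H/R, and 0, 0.0756 and 0 in EGR1OV. These values stand for 3 to 4 reads per library in Sham, 1 to 4 in H/R and 0 to 2 in EGR1OV, at or near the floor of 3 reads, so no fold is given. It was the 1 gene of the 10 below the mean of 0.5 FPKM asked for before testing. The other 9 were above that level in each group, Tagln being the lowest at 1.69 to 2.21 FPKM in EGR1OV.

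**Figure D1:**
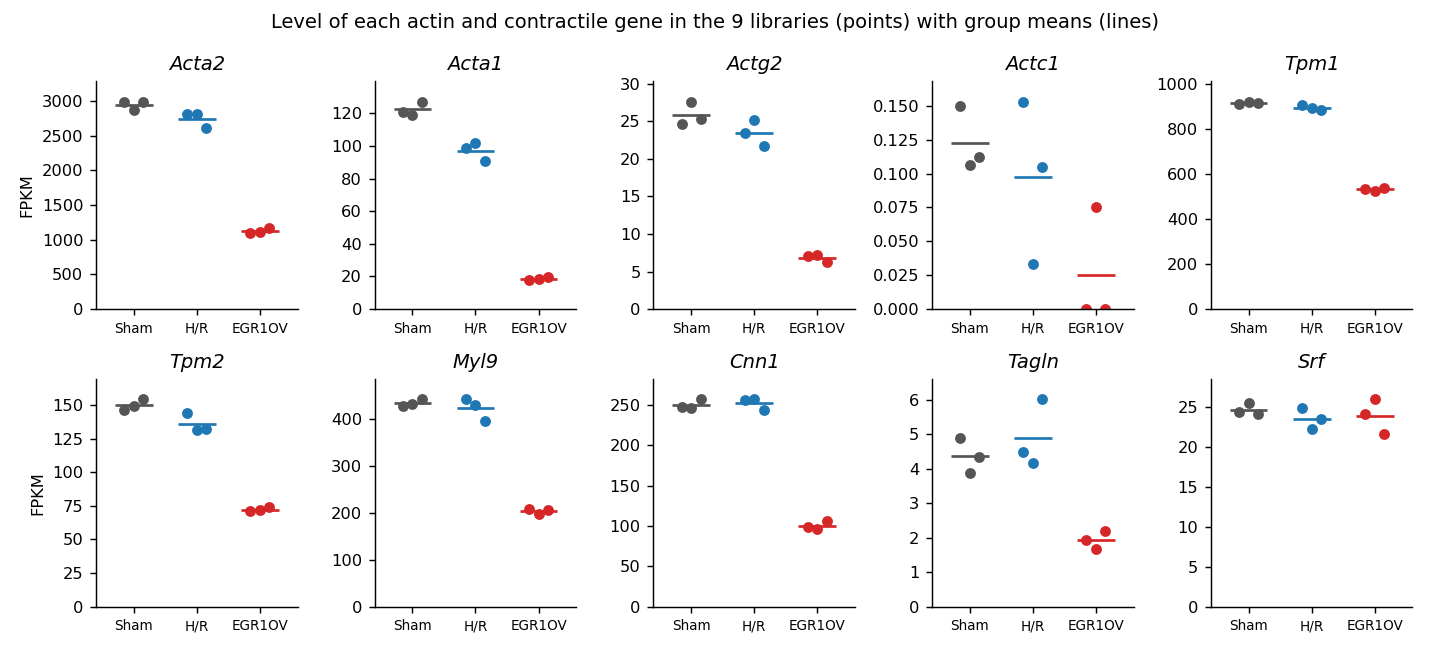
FPKM (vertical axis, linear and starting at 0, its own scale in each panel) of the 10 genes in the 3 Sham, 3 H/R and 3 EGR1OV libraries, as points with a line at the group mean. In 8 panels the EGR1OV points lie below all Sham and H/R points, in the Actc1 panel all values are at or under 0.153 FPKM, and in the Srf panel the 3 groups overlap.

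The muscle forms held a smaller share of all actin in EGR1OV. The 4 muscle actins made up 50.6%, 49.1% and 49.8% of the FPKM of the 6 actins in Sham, 49.9%, 50.0% and 49.0% in H/R, and 35.2%, 35.2% and 35.3% in EGR1OV. The EGR1OV libraries lay close together and below every other library. H/R and Sham differed by −0.170 percentage points (exact two-sided permutation test, p = 0.900). Summed over the 6 actins, Sham had 6213 ± 74.9 FPKM, H/R had 5767 ± 182 and EGR1OV had 3284 ± 108 (SD, n = 3).

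The cytoplasmic actins, which build the cortex and stress fibres of most cells, were lower in EGR1OV too, but by less. Actb fell from 1814 ± 44.6 to 1218 ± 40.8 FPKM (log2 difference −0.57, limma, Benjamini-Hochberg adjusted p = 7.58e-07), leaving 67.1% of Sham. Actg1 fell from 1304 ± 9.48 to 910 ± 28.9 FPKM (log2 difference −0.52, adjusted p = 7.25e-07), leaving 69.8%. Neither gene was called in H/R, where Actb differed by −0.09 (adjusted p = 0.124) and Actg1 by −0.13 (adjusted p = 0.0273, under the fold asked for).

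Acta1 was also lower in relation to Acta2. For every 100 FPKM of Acta2 there were 4.04, 4.16 and 4.25 FPKM of Acta1 in Sham, 3.50, 3.64 and 3.48 in H/R, and 1.60, 1.65 and 1.66 in EGR1OV. The 3 groups did not overlap. H/R minus Sham came to −0.604 on average, where the exact two-sided permutation test gave p = 0.1 and could not have gone lower.

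**Figure D2:**
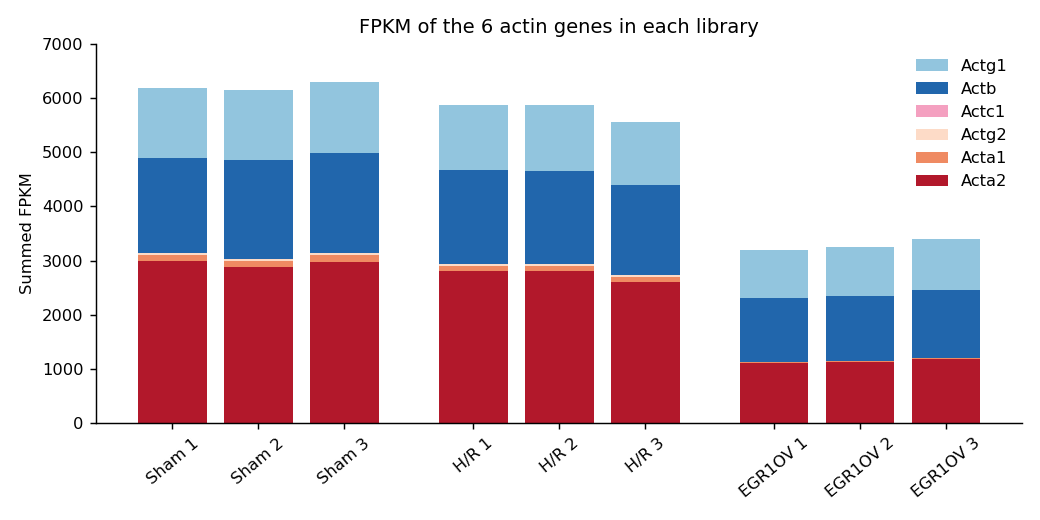
Summed FPKM (vertical axis) of the 6 actin genes, stacked by gene, in each of the 9 libraries. The muscle actins (red, orange and pink) make up 49.0% to 50.6% of the bar in all Sham and H/R libraries against 35.2% to 35.3% in EGR1OV, where the whole bar is also shorter (3197 to 3405 FPKM).

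The tropomyosins, which stiffen the actin filament and govern access of myosin to it, were both lower in EGR1OV. Tpm1 (chr9:67022590-67049406, minus strand) was at 909, 920 and 916 FPKM in Sham, at 905, 891 and 883 in H/R and at 531, 524 and 539 in EGR1OV. Tpm2 (chr4:43514711-43523765, minus strand) was at 146, 149 and 154 in Sham, at 144, 131 and 132 in H/R and at 71.0, 71.9 and 73.8 in EGR1OV. For both genes the EGR1OV libraries were apart from the rest, and the H/R libraries lay just below Sham without overlap. EGR1OV held 58.1% of the Sham level of Tpm1 and 48.3% of that of Tpm2, with log2 differences of −0.78 and −1.04. In H/R neither was called, at −0.03 for Tpm1 (limma, Benjamini-Hochberg adjusted p = 0.336) and −0.14 for Tpm2 (adjusted p = 0.0530).

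Myl9, the regulatory light chain whose phosphorylation switches smooth muscle myosin on, lies on chr2:156775420-156781658, plus strand. Its FPKM were 427, 431 and 441 in Sham, 441, 429 and 396 in H/R, and 207, 198 and 205 in EGR1OV. Sham and H/R overlapped, with H/R replicate 3 the lowest of the 6, and EGR1OV stood at 47.1% of Sham (log2 difference −1.08). The difference between H/R and Sham was −0.04 (limma, Benjamini-Hochberg adjusted p = 0.569).

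Cnn1, calponin, binds actin and slows the myosin motor (chr9:22099216-22109630, plus strand). It was at 248, 247 and 257 FPKM in Sham, at 256, 257 and 244 in H/R and at 98.8, 96.2 and 106 in EGR1OV. H/R overlapped Sham (log2 difference 0.01, limma, Benjamini-Hochberg adjusted p = 0.908), and EGR1OV held 39.9% of the Sham level, a log2 difference of −1.32.

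Tagln, transgelin or SM22 alpha, cross-links actin and is an early marker of smooth muscle (chr9:45929619-45936058, minus strand). Its level was far below that of Acta2, with 4.89, 3.89 and 4.33 FPKM in Sham, 4.48, 4.16 and 6.01 in H/R, and 1.94, 1.69 and 2.21 in EGR1OV. H/R replicate 3 was the highest of the 9 libraries, and all EGR1OV libraries were below the rest, at 44.5% of Sham. The log2 difference of −0.87 understates this change, since 1 FPKM was added to low values, and a pseudocount of 0.1 FPKM gave −1.13. H/R and Sham differed by 0.12 (limma, Benjamini-Hochberg adjusted p = 0.557).

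Srf, the factor named for binding the serum response element, did not share the pattern (chr17:46546839-46556162, minus strand). Its FPKM were 24.4, 25.5 and 24.2 in Sham, 24.9, 22.3 and 23.5 in H/R, and 24.2, 26.0 and 21.7 in EGR1OV. The 3 groups overlapped, with EGR1OV replicates the highest and the lowest of the 9. EGR1OV was at 97.0% of Sham (log2 difference −0.05 ± 0.0629 SE), and H/R differed from Sham by −0.07 (limma, Benjamini-Hochberg adjusted p = 0.534).

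Ordered by the log2 difference of EGR1OV from Sham, the genes ran Acta1, Actg2, Acta2, Cnn1, Myl9, Tpm2, Tagln, Tpm1, and last Srf. This order is descriptive, and the gaps between neighbours were not tested. By level in Sham the order was Acta2, Tpm1, Myl9, Cnn1, Tpm2, Acta1, then Actg2 and Srf with overlapping values, then Tagln and Actc1. In EGR1OV Srf stood above Acta1 and Actg2, with no overlap between Srf and either.

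Counted together, 8 of the 9 genes above the expression filter, all but Srf, lay below both other groups in EGR1OV without overlap. The choice of the genes rested on this contrast, so nothing is read from that count. Over all genes in the fit 24.6% lay below Sham without overlap and 22.0% below H/R. The median log2 difference over the 9 genes was −1.08 from Sham and −1.05 from H/R, where the medians of all tested genes were 0.02 and 0.05. In H/R against Sham the median over the 9 genes was −0.07, and that of all tested genes was −0.03. In that comparison 4 of the 9 (Acta1, Acta2, Tpm1 and Tpm2) lay below Sham without overlap, as did 21.8% of all tested genes.

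Together the 10 genes made up 1.64% to 1.75% of all FPKM in Sham, 1.52% to 1.70% in H/R and 0.743% to 0.749% in EGR1OV. Their replicate spread was small at high levels and larger for Tagln, with coefficients of variation in Sham from 0.628% for Tpm1 to 11.5% for Tagln. The median gene of at least 5 FPKM had 3.50%. In bulk samples such as these, fewer cells of a type and less RNA per cell cannot be told apart.

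**Figure D3:**
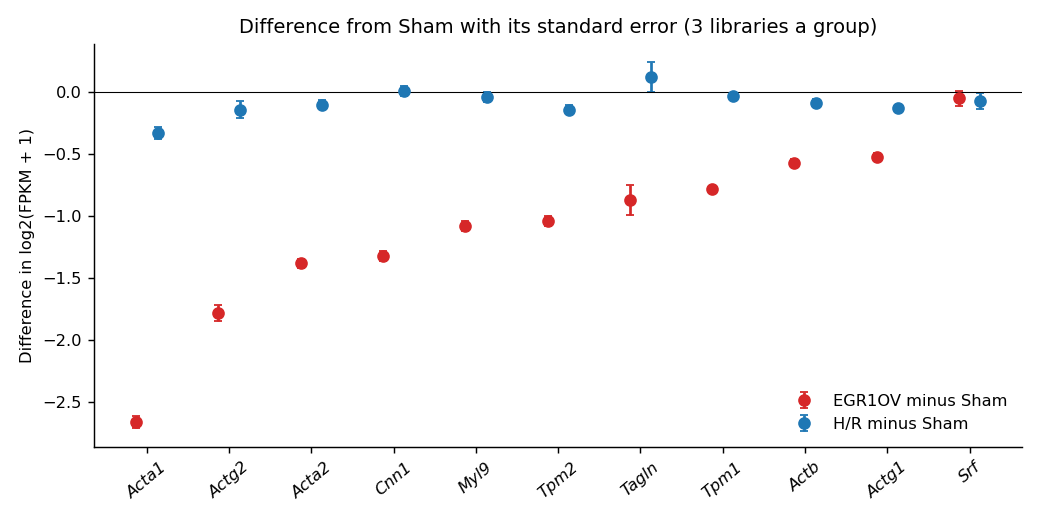
Log2 difference from Sham, on the log2(FPKM + 1) scale, of the 9 tested genes with Actb and Actg1 for H/R and EGR1OV, with bars of 1 standard error. The EGR1OV points run from −2.66 for Acta1 to −0.05 for Srf, and the H/R points from −0.33 for Acta1 to 0.12 for Tagln.

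Of 15 further genes that mark the smooth muscle lineage 12 could be tested in EGR1OV against Sham. Of these, 7 fell, 1 rose and 4 were not called, with a median log2 difference of −0.51. This list and those below were chosen with earlier results of these data known, so their counts are a description. Over all genes 16.4% were called, 6.51% lower and 9.87% higher. Lmod1, leiomodin, which nucleates actin in smooth muscle, fell from 36.0 ± 0.890 to 12.4 ± 0.678 FPKM (log2 difference −1.47, limma, Benjamini-Hochberg adjusted p = 1.29e-08). Myh11, the smooth muscle myosin heavy chain and a defining gene of the lineage, was low throughout and fell from 2.83 ± 0.0768 to 0.706 ± 0.105 FPKM (−1.17, adjusted p = 1.67e-06). Nexn, an actin-binding protein, fell from 18.1 ± 0.502 to 9.41 ± 0.297 FPKM (−0.87, adjusted p = 4.33e-07), leaving 52.1% of Sham. Kcnmb1, a subunit of the large potassium channel, fell from 2.71 ± 0.190 to 1.04 ± 0.0795 FPKM (−0.87, adjusted p = 2.35e-06), leaving 38.2%. At such low levels the added 1 FPKM shrinks the log2 difference, as it does for Myh11, of which 25% was left.

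Ppp1r12b, a targeting subunit of myosin phosphatase, was the gene that rose, from 5.10 ± 0.0638 to 10.3 ± 0.334 FPKM (log2 difference 0.89, adjusted p = 1.79e-07). Des, desmin, the muscle intermediate filament, had 21.1 ± 1.08 FPKM in Sham and 18.2 ± 0.328 in EGR1OV and stayed under the fold asked for (−0.20, adjusted p = 0.00423). Myocd, myocardin, was at a mean of 0.0898 FPKM or less in every group and was not tested. In H/R 1 of the 12 was called, Lmod1, at 29.7 ± 1.64 FPKM (−0.27, adjusted p = 0.00939). That call was lost under median-ratio scaling, under quantile normalization, without H/R replicate 3 and without Sham replicate 2.

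The wider actin cytoskeleton showed smaller differences in EGR1OV, most of them toward lower levels. Of 25 tested genes, 9 fell against Sham and none rose past the threshold, and their median log2 difference was −0.30. Without the fold requirement 23 of the 25 were lower and 1 was higher at an adjusted p under 0.05, where 19.8% of all tested genes were lower. Cnn2, a calponin of non-muscle cells, fell from 438 ± 13.1 to 247 ± 3.12 FPKM (−0.82, adjusted p = 3.57e-08), followed by Actb, by the kinase Rock2 (−0.56, adjusted p = 2.98e-06) and by the myosin light chain Myl6 (−0.55, adjusted p = 1.32e-06). In H/R limma called 0 of the 25, although 7 were lower at an adjusted p under 0.05 with folds under the threshold, as were 7.54% of all tested genes when no fold was asked for.

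Of 9 cofactors of Srf tested, Fhl1, a LIM-domain protein, was the single gene called in EGR1OV against Sham, a share near the 16.4% of all genes, falling from 212 ± 4.96 to 91.4 ± 3.08 FPKM (−1.20, adjusted p = 3.04e-09). The myocardin-related factors, listed as Mkl1 and Mkl2, differed by −0.04 (adjusted p = 0.383) and −0.03 (adjusted p = 0.571) and were not called. Mkl1 had 14.4 ± 0.548 FPKM in Sham and 13.9 ± 0.0979 in EGR1OV, and Mkl2 had 7.88 ± 0.192 and 7.72 ± 0.133. In H/R against Sham limma called 0 of the 9 in FPKM as deposited and 1 after median-ratio scaling. At an adjusted p under 0.05, 3 were higher with folds under the threshold. The share of all tested genes that did so is not given, so nothing is read from that count.

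Of 8 growth factor targets of Srf tested, which respond to mitogen signalling, 3 rose and 1 fell in EGR1OV against Sham, with a median log2 difference of 0.25, where 9.87% of all genes rose and 6.51% fell. Fos rose from 1.67 ± 0.134 to 4.55 ± 0.418 FPKM (1.06, adjusted p = 1.57e-06), Nr4a1 from 1.94 ± 0.189 to 4.77 ± 0.408 (0.97, adjusted p = 3.58e-06) and Junb from 103 ± 1.35 to 135 ± 9.80 (0.38, adjusted p = 0.000161). Ankrd1, a cardiac ankyrin repeat gene, fell from 860 ± 19.9 to 614 ± 23.2 FPKM (−0.48, adjusted p = 1.67e-06). In H/R the called gene was Egr2, which rose from 0.832 ± 0.129 to 1.94 ± 0.392 FPKM (0.67, adjusted p = 0.00490). Against H/R, EGR1OV gave 7 lower and 1 higher for the lineage list, 9 lower for the cytoskeleton, 1 lower for the cofactors, and 2 lower and 2 higher for the growth factor targets, where 18.9% of all genes were called, 6.94% lower and 11.9% higher.

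**Figure D4:**
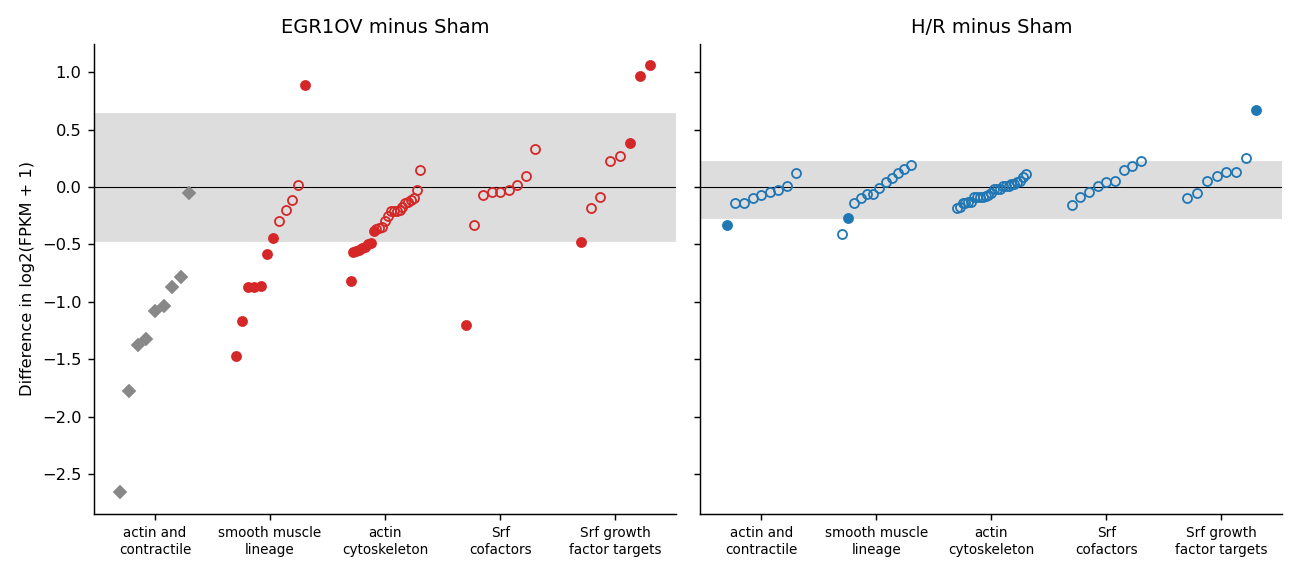
Log2 difference of each gene of the actin and contractile set and of 4 lists around it, for the comparisons with Sham, with called genes as filled points, other tested genes as open points, the contractile genes in EGR1OV as grey diamonds because they were not tested there, and a grey band from the 5th to the 95th percentile of all tested genes. In EGR1OV 8 of the 9 contractile genes lie below the band, which runs from −0.47 to 0.64. Among other genes named in the text, so do Lmod1, Myh11, Nexn, Kcnmb1, Cnn2, Actb, Actg1, Rock2, Myl6, Fhl1 and Ankrd1. Further genes of the lineage and cytoskeleton lists also lie below it. Ppp1r12b, Fos and Nr4a1 lie above it.

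Markers of other cell types were read beside these results, since smooth muscle actin is also a product of pericytes and myofibroblasts. Of 8 leukocyte genes 7 were tested, and all 7 fell in EGR1OV against Sham, with a median log2 difference of −2.24 and a summed level of 140 to 144 FPKM in Sham, 116 to 123 in H/R and 22.1 to 26.5 in EGR1OV. In H/R 2 of the 7, Lyz2 and Adgre1, were called lower. Beside this and the marker lists below, 6.51% of all tested genes were called lower and 9.87% higher in EGR1OV against Sham. In H/R these shares were 2.65% and 1.60%. Ptprc, the pan-leukocyte marker, was not tested and had means of 0.470, 0.495 and 0.144 FPKM in Sham, H/R and EGR1OV. Its EGR1OV values lay below both other groups without overlap. The most abundant was Lyz2, lysozyme of myeloid cells, at 57.7 ± 1.62, 47.1 ± 2.02 and 5.46 ± 0.588 FPKM in Sham, H/R and EGR1OV.

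Pericyte and mesangial genes summed to 245 to 248 FPKM in Sham, 234 to 248 in H/R and 165 to 183 in EGR1OV. Nearly all of this was Mcam (231 FPKM in Sham), which fell in EGR1OV by 0.53 (limma, Benjamini-Hochberg adjusted p = 5.03e-06). Notch3 also fell, by 0.46 (adjusted p = 0.00170), while the other 3 of 5 tested were not called. Of those 3, Cspg4 went the other way, higher in EGR1OV by 0.37 (adjusted p = 0.00238), under the fold asked for. The defining pericyte gene Rgs5 was near 0, at a mean of 0.254 FPKM or less in each group, and Pdgfrb was at 4.20, 3.43 and 3.81 FPKM. In H/R the pericyte gene Cspg4 rose by 0.48 (adjusted p = 0.00450).

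The 8 fibroblast genes, 5 of them tested, summed to 33.1 to 35.3 FPKM in Sham, 41.5 to 42.6 in H/R and 38.0 to 42.6 in EGR1OV, with Lum and Dcn at or near 0. In EGR1OV Col1a2 rose (0.45, adjusted p = 2.18e-05) and Thy1 fell by 0.50 (adjusted p = 0.00291). In H/R Col1a1, Col1a2 and Postn rose, by 0.27, 0.32 and 0.26, with adjusted p of 0.0235, 0.00235 and 0.0465. The means of the 3 collagen genes were above Sham in both H/R and EGR1OV.

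Endothelial genes (6 in the table, 5 tested) summed to 10.2 to 10.5 FPKM in Sham, 10.5 to 11.1 in H/R and 7.34 to 7.94 in EGR1OV, with Pecam1 called lower. Striated muscle genes were at 1 FPKM or less in every library for 11 of the 13 in the table, Myh2 at 0 in all 9, and summed to 2.69 to 3.05, 2.32 to 2.49 and 4.62 to 5.61 FPKM in Sham, H/R and EGR1OV. The 2 that could be tested, Tnnt2 and Mylpf, rose in EGR1OV, by 0.62 and 0.43 (limma, adjusted p = 9.31e-05 and 0.00250).

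Of 12 tubule epithelial genes, 9 were tested and 4 fell in EGR1OV (Krt8, Krt18, Lrp2 and Aqp1) while Epcam rose. Without the fold requirement 5 were lower in EGR1OV and 3 (Epcam, Cdh1 and Pax2) were higher (limma, Benjamini-Hochberg adjusted p under 0.05). Of all tested genes 19.8% were lower in this way, and the share that were higher is not given. The sum went from 1894 to 1933 FPKM in Sham through 1750 to 1829 in H/R to 1232 to 1336 in EGR1OV. The keratins Krt8 (1014 FPKM in Sham) and Krt18 (685 FPKM) carried most of it. The part of any of these marker lists in the differences of the contractile genes was not tested.

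**Figure D5:**
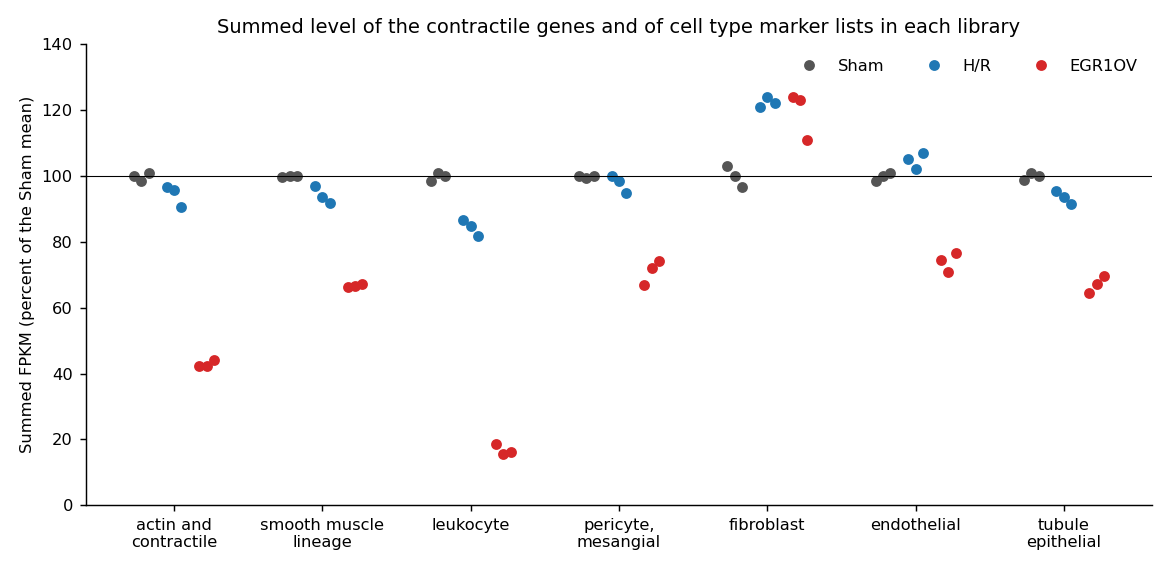
Summed FPKM of the contractile genes, the smooth muscle lineage list and 5 lists of cell type markers in the 9 libraries, in percent of the Sham mean (points are libraries, the line is at 100). In EGR1OV the contractile genes stand at 42.3 to 44.1, the lineage list at 66.3 to 67.2 and the leukocyte list at 15.5 to 18.7. The pericyte list is at 67.0 to 74.2, the endothelial list at 70.9 to 76.7 and the tubule epithelial list at 64.3 to 69.7. The fibroblast list lies above the line, at 111 to 124.

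The genes whose profile over the 9 libraries was most like those of Acta1 and Acta2 were looked up among 316 genes averaging 5 FPKM or more with a range of at least 1 log2 unit between group means. For Acta1 they were Acta2 (Pearson r = 0.999), C1qa (0.998), Tpm2 (0.996), Lyz2 (0.996) and Lmod1 (0.996). For Acta2 they were Acta1 (0.999), C1qa (0.998), Myl9 (0.997), Cnn1 (0.997) and Fabp5 (0.996), the last a fatty acid carrier at 7.86 ± 0.30, 7.49 ± 0.610 and 3.06 ± 0.0424 FPKM. All 9 points of each correlation fall into the 3 groups, with EGR1OV apart from the rest, so these values describe the likeness of group profiles. C1qa, a complement gene of macrophages, was at 31.1 ± 1.22, 26.4 ± 1.01 and 4.50 ± 0.279 FPKM.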

How the data were processed

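Total RNA of 9 libraries was sequenced on an Illumina NovaSeq instrument. The authors deposited 1 table of FPKM with a column per library. The submitters' processing notes name Bowtie2 2.2.3, HISAT2 2.1.0, TopHat2 and mm9, without role or order. GENCODE M21 (GRCm38) held 99.8% of its gene identifiers and had the same position for 94.6%, and coordinates follow the table. The counter and annotation are not given in the sources used here. In 26 symbols a spreadsheet date was set back by gene identifier.

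Groups and replicate numbers came from the sample titles. FPKM are not counts, so log2(FPKM + 1) of the 13985 genes averaging 0.5 FPKM or more was fitted over all 9 libraries in limma 3.58.1 (R 4.3.3, trend). Tests were two-sided and p-values were adjusted by Benjamini-Hochberg over all genes tested. Calls needed an adjusted p under 0.05 and 1.2-fold (H/R against Sham) or 1.3-fold (EGR1OV). The code was tested on simulated data. FPKM and M21 exon lengths gave whole reads for 94.0% of 162897 values within 0.02 reads. The lengths of Acta2 and Srf differ from the annotation used for the table, so no reads are given for them. Floors cover counting error only. Exact permutation tests (SciPy 1.17.1) were used for single values.

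The 10 genes and all lists were chosen with earlier results of these data known. Named were all 10 genes, Egr1, Actb, Actg1, Myh11, Des, Myocd, Mkl1 and Mkl2, from each list up to 4 called genes of largest difference in a comparison, the most abundant and the defining marker genes, and the 5 genes most like Acta1 and Acta2. Alternatives were another pseudocount, filter, scaling, test or fold, a replicate block, voom on recovered reads, and leaving out each library.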

Additional observations from a re-analysis of the deposited data

Results flagged for a closer look

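Groups of 3 libraries were too small to test for a stray sample. In 11 genes of the pathway and marker lists all EGR1OV libraries lay on one side of Sham and all H/R libraries on the other. For these 11, EGR1OV minus H/R also passed the limma test with Benjamini-Hochberg adjustment. None of the 10 contractile genes met both conditions. The share of all tested genes that did so is not given, so nothing is read from these counts. All 11 were below Sham in EGR1OV and above it in H/R, although several did not pass the test against Sham itself in one of the groups, such as Actn1 in H/R (adjusted p = 0.394). Des differed between EGR1OV and H/R by −0.36 (log2, adjusted p = 0.000101). The filament and adhesion genes Cnn3, Actn1 and Zyx differed by −0.45, −0.34 and −0.47 (adjusted p = 2.56e-06, 4.7e-06 and 2.53e-06). Of the growth factor targets of Srf, Egr2 differed by −0.86 (adjusted p = 0.000107), Ankrd1 by −0.61 (adjusted p = 3.03e-07) and Mcl1 by −0.19 (adjusted p = 0.000608). Of the cell type markers, Postn differed by −0.40 (adjusted p = 0.00133), Cdh5 by −0.39 (adjusted p = 0.000345), Flt1 by −0.30 (adjusted p = 0.00559) and Cdh16 by −0.41 (adjusted p = 1.68e-05).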

How the results depend on the processing

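In H/R Acta1 was the 1 gene of the 10 called under all alternatives that were run, those without 1 library included. Tpm2 and Acta2 stayed under the fold asked for, but their limma adjusted p depended on the setting. For Tpm2 it was 0.0308 at a mean of at least 5 FPKM, 0.0126 without H/R replicate 1 and 0.00593 by voom. By voom it was 0.00511 for Acta2. In EGR1OV all 8 genes other than Srf and Actc1 kept a negative difference from Sham and from H/R in every alternative that included them. Tagln was left out at a mean of at least 5 FPKM. The counts over all genes moved more. At a mean of at least 5 FPKM 372 genes were called in H/R, 1315 in EGR1OV against Sham and 1520 in EGR1OV against H/R. With no fold asked for they were 1635, 6417 and 7135, and voom on recovered reads gave 995 for H/R. Leaving out 1 library gave 449 to 579, 2238 to 2373 and 2583 to 2703.

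Scaling moved the direction of calls over all genes. The share called higher in H/R was 37.7% as deposited, 53.9% by median-ratio scaling and 56.5% by quantile normalization. For EGR1OV against Sham it was 60.3%, 55.2% and 45.9%, and against H/R 63.2%, 53.1% and 42.5%. The difference of Acta2 in EGR1OV from Sham ran from −1.41 to −0.93. The signs of 3 uncalled H/R differences turned when 1 library was left out, with ranges of −0.004 to 0.034 for Cnn1, −0.011 to 0.21 for Tagln and −0.071 to 0.007 for Myl9. The cause was not tested.

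The sources used here do not say whether equal replicate numbers mark samples prepared together. Between libraries of equal number, correlations of deviations from the group means were −0.195 to 0.263. Correlations between libraries of different number were not computed, so these values do not settle it. With the replicate block 516, 2309 and 2654 genes were called, Acta1 among those for H/R. Depth limited Actc1, at 0 to 4 reads per library.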
